A study of Mus musculus with 6 samples.

Results

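The genes described here encode complexes II, III, IV and V of oxidative phosphorylation, the machinery in the inner mitochondrial membrane that moves electrons to oxygen and makes ATP. Members were taken by gene symbol from the deposited array table: Sdha to Sdhd for complex II, Cyc1 and symbols starting with Uqcr for complex III, symbols starting with Cox and the digit 4, 5, 6, 7 or 8 for complex IV, and symbols starting with Atp5 for complex V. This gave 48 of the 22180 genes measured, with 4 in complex II, 9 in complex III, 17 in complex IV and 18 in complex V. Among them are 2 pseudogenes, Uqcrh-ps1 and Atp5c1-ps, and Cox7a2l, which is better known as a factor that joins complexes III and IV than as a subunit. Another 4 array features carry a symbol of these families together with the symbol of another gene, and they were left out.

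The cells were the RET line, a mouse melanoma line whose labelled strain is C57BL\6. The control group held 3 cultures with a non-targeting shRNA (short hairpin RNA, which lowers a matching mRNA), and their titles also say GFP. The other group held 3 cultures with Angpt2 shRNA-1, a single hairpin against Angpt2, the gene of the secreted vascular factor angiopoietin-2. All 6 were seeded at equal cell number, kept for 24 h in the same medium and measured on 1 Affymetrix Mouse Gene 2.0 ST array each, and cells with the Angpt2 hairpin are called silenced cells here. With 1 hairpin and 1 cell line, effects of Angpt2 loss and other effects of this hairpin or cell population cannot be told apart.

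Complex II (succinate dehydrogenase) passes electrons from succinate to ubiquinone and is the only one of these complexes built from nuclear genes alone. Complex III hands electrons from ubiquinol to cytochrome c, complex IV (cytochrome c oxidase) hands them to oxygen, and complex V (ATP synthase) uses the resulting proton gradient to make ATP. Several subunits of complex IV come in a form found in most tissues and a form of muscle, lung or testis. The nuclear genes are known as targets of the transcription factors NRF1, GABP (an ETS family factor) and, for some, YY1. In melanoma, reliance on this pathway is known to differ between cell states.

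Some members carry the cores of these factors' sites in their promoters, and stretches of such promoters are shown for that reason. RefSeq promoter windows (GRCm38.p6, from 250 bases before to 50 bases after the transcription start) were at hand for 35 of the 48 members. The letters GCATGCGC, the core of the NRF1 site, stood on either strand in 20% of these members (7 of 35), against 3.94% of 17492 protein-coding genes and 2.71% of all 32851 promoters. The ETS core CCGGAAG was held by 37.1% of members (13 of 35), against 12.9% of protein-coding genes and 8.86% of promoters. The YY1 core AAGATGGC was held by 8.57% (3 of 35), against 3.57% and 2.75%. Both the NRF1 and the ETS core were held by 14.3% of members (5 of 35), namely Sdhb, Uqcr11, Cox6a1, Atp5k and Atp5l, against 0.846% of protein-coding genes. An NRF1 core, an ETS core or both were held by 15 of the 35. The NRF1 core reads into its own reverse complement, so a full palindrome counts on both strands as overlapping matches. A match is a description of the letters, and binding was not measured.

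The stretches below lie upstream of the transcription start and are read 5′ to 3′ on the gene's strand, with cores that lie whole inside the stretch in capitals (GCATGCGC or its palindrome for NRF1, CCGGAAG or its reverse complement CTTCCGG for ETS).
Sdhb, complex II, chr4:140961211-140961270, plus strand: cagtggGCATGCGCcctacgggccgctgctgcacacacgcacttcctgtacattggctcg
Sdhd, complex II, chr9:50603850-50603909, minus strand: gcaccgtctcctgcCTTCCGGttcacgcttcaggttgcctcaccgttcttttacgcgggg
Uqcr11, complex III, chr10:80406822-80406896, minus strand: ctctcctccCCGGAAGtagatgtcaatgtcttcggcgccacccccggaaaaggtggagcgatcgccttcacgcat
Cox6b1, complex IV, chr7:30626115-30626174, minus strand: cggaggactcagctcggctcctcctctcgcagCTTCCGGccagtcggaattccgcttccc
Cox6a1, complex IV, chr5:115348959-115349138, minus strand: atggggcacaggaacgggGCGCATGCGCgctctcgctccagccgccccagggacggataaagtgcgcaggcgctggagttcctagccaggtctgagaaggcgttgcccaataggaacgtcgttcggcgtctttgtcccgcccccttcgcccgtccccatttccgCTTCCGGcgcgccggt
Atp5k, complex V, chr5:108434400-108434459, minus strand: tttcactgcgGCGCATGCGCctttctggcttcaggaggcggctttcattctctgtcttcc
Atp5g2, complex V, chr15:102671048-102671107, minus strand: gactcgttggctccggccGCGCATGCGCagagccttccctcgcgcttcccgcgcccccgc
Atp5e, complex V, chr2:174464162-174464211, minus strand: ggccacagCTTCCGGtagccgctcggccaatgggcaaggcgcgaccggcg

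Within the window searched, the matches lay at different distances from the start. The NRF1 core begins 54 bases before the start in Sdhb, the palindrome 50 bases before it in Atp5k, 42 in Atp5g2 and 162 in Cox6a1, and in Uqcrc1 it lies just after the start. Atp5l holds both cores near the far edge of the window, with an ETS core 212 and the NRF1 core 240 bases before the start, and another ETS core after the start. The ETS core begins 46 bases before the start in Sdhd, 28 in Cox6b1, 16 in Cox6a1 and 10 in Uqcrh. Atp5e has one 102 bases before the start, Uqcr11 one 66 bases before it, and in Cox8a one begins 5 bases before the start and runs across it.

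Of the 48 members, 0 passed the test between the groups. Limma, a linear model with variances shared across genes, gave every member an adjusted p of 1.00 over all 22180 genes, where the share of all genes called was likewise 0%. At an unadjusted p under 0.05 there were 0 members against 3.76% of all genes (1.52% higher and 2.24% lower in silenced cells). Log2 fold changes (silenced over control) ran from -0.23 for Cox6a2 to 0.25 for Uqcrh, and both ends rested on control replicate 1, without which these genes were at -0.04 and -0.07. The 95% intervals of all members included 0, and for the median member they reached 0.24 to either side of the estimate on the log2 scale. Across members the interval ends reached from -0.58 for Cox6a2 to 0.92 for Uqcrh. In RNA from whole cultures, fewer cells with a transcript and less of it per cell cannot be told apart.

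**Figure D1:**
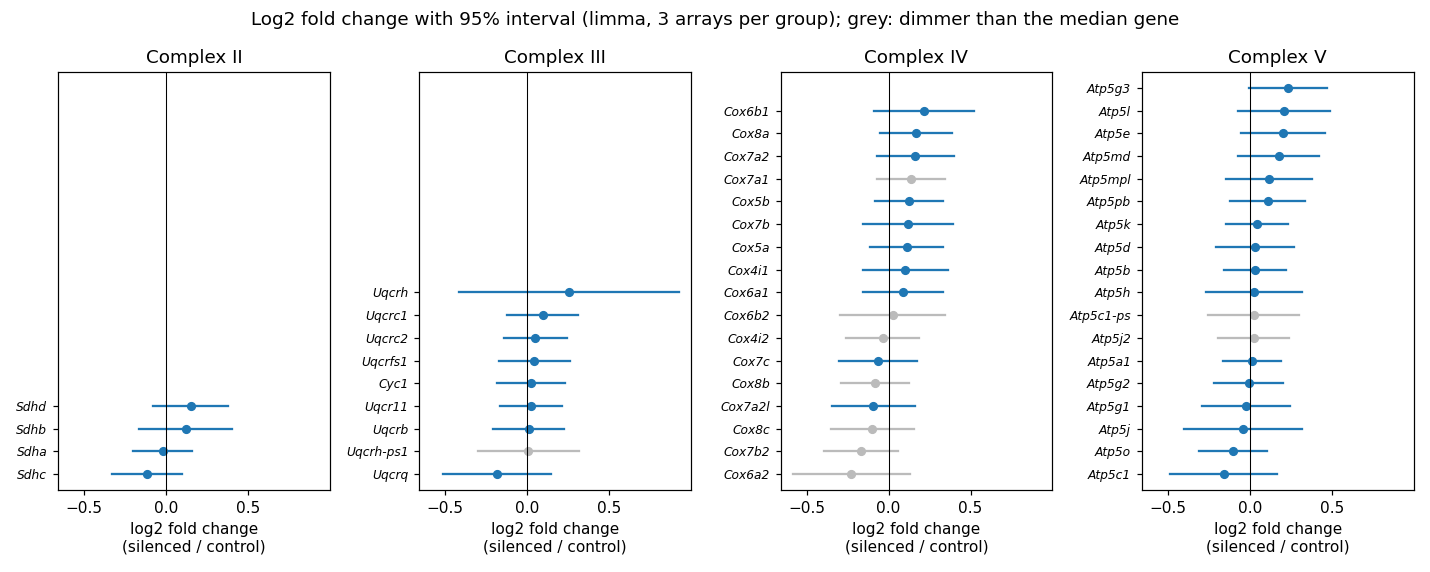
Log2 fold change (horizontal axis, silenced over control) of each of the 48 members by complex, with points for the limma estimate and lines for its 95% interval from 3 arrays per group, and grey for genes dimmer than the median gene. Every line crosses 0, and the widest is that of Uqcrh, from -0.42 to 0.92.

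Small positive values outnumbered negative ones in 3 of the 4 complexes. Of the 48 members 33 had a positive log2 fold change (68.8%, against 45.2% of all genes), with 2 of 4 in complex II, 8 of 9 in complex III, 10 of 17 in complex IV and 13 of 18 in complex V. The median was 0.05 in complex II, 0.03 in complex III, 0.09 in complex IV and 0.03 in complex V, against -0.01 over all genes. The order of the complexes turned with the summary used, since the mean over members was 0.03 in complex II, 0.03 in complex III, 0.03 in complex IV and 0.05 in complex V. With all features of a gene averaged, the median of complex IV was 0.04. The median deviation of complex IV genes from their own means was -0.03 ± 0.13 in controls and 0.04 ± 0.04 in silenced cells (SD, n = 3 arrays each), and that of complex V genes -0.03 ± 0.08 and 0.04 ± 0.04. In complex III it was -0.04 ± 0.06 and 0.01 ± 0.04, and in complex II 0.01 ± 0.03 and 0.02 ± 0.02. The groups overlapped in complexes II, III, IV and V alike, and each difference was smaller than the SD of the controls. The balance rested on 1 library. Without control replicate 2 there were 23 positive members (47.9%, against 45.9% of all genes), and the medians were -0.02, 0.03, -0.01 and 0.00.

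Control replicate 2 stood apart for these genes. It held the lowest of the 6 values for 25 of the 48 members (52.1%), against 19.1% of all genes. Complex V had 11 of 18 members lowest there, complex IV 9 of 17, complex III 4 of 9 and complex II 1 of 4. Among members with a mean intensity of at least 1000, a bound set after the data were seen, 21 of 25 were lowest on this array (84%), against 23.4% of the 1375 genes of that brightness. The median deviation of all members from their own means over the 6 arrays was -0.11 there and between 0.00 and 0.05 on the other 5, while the median over all genes stayed between -0.01 and 0.02 on every array. No culture date, hybridisation batch or RNA quality value was analysed here, and no cause of this was tested.

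**Figure D2:**
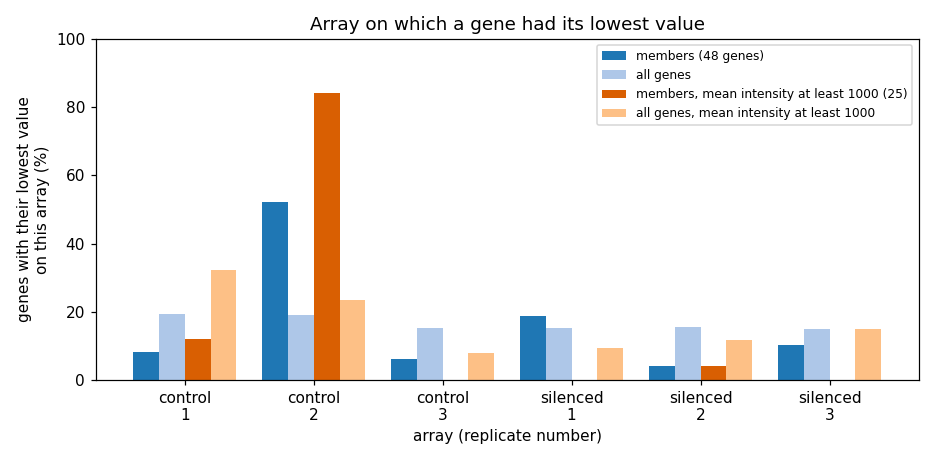
Share of genes (vertical axis, percent) that had their lowest value on each of the 6 arrays, for the members and for all genes, each also restricted to a mean intensity of at least 1000. The members stand above all genes on control replicate 2, at 52.1% against 19.1%, and at 84% against 23.4% among bright genes.

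The complexes followed this to different degrees. On control replicate 2 the median deviation was -0.18 in complex IV, -0.12 in complex V, -0.10 in complex III and -0.01 in complex II. On the other arrays it lay between 0.01 and 0.09 in complex IV, between -0.03 and 0.06 in complex V, between -0.03 and 0.05 in complex III and between 0.00 and 0.05 in complex II. The array on which members were most often highest was Angpt2 shRNA-1 replicate 3, with 15 of 48 (31.2%, against 16% of all genes). Within replicate numbers 1, 2 and 3 the median difference between silenced and control arrays was -0.06, 0.19 and 0.05 in complex IV and -0.01, 0.17 and 0.00 in complex V, so that the pair holding control replicate 2 gave the larger part. In complex III it was -0.05, 0.08 and 0.06, and in complex II -0.01, 0.05 and -0.01.

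**Figure D3:**
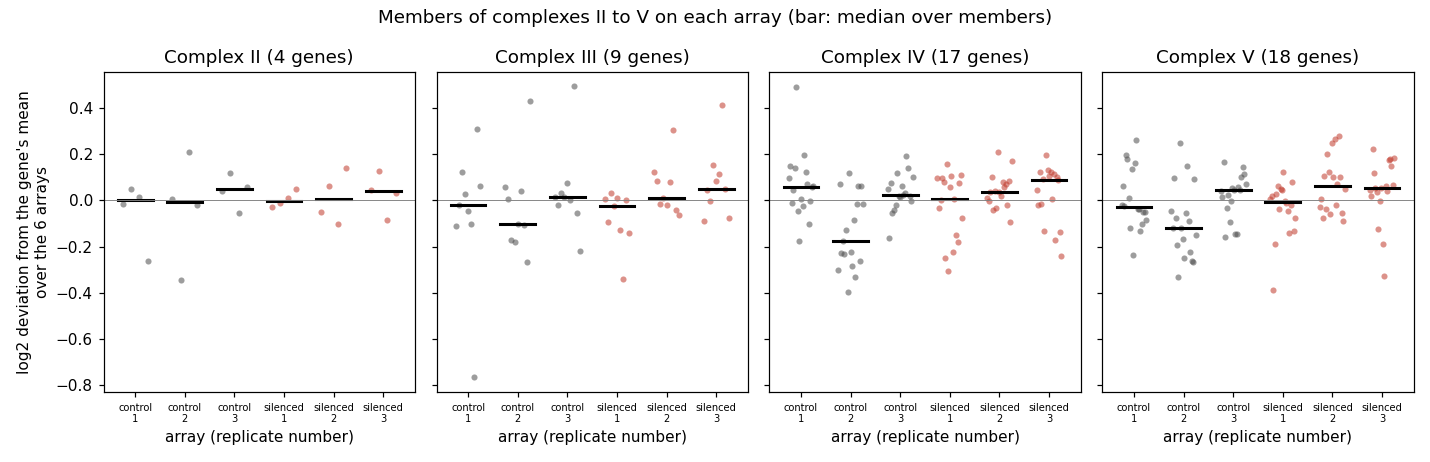
Deviation of each member from its own mean over the 6 arrays (vertical axis, log2), by array and complex, with points for genes and bars for their median. In complexes III, IV and V the bar is lowest on control replicate 2, at -0.10, -0.18 and -0.12, while in complex II it is at -0.01.

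In complex II the members differed among themselves on that array. Sdha, the flavoprotein that oxidises succinate, was at intensities of 2061, 2093 and 2142 in controls 1, 2 and 3 and at 2043, 2014 and 2150 in silenced replicates 1, 2 and 3. These values lay within a narrow band and the groups overlapped (log2 fold change -0.02, SE 0.08). Sdhb, the iron-sulphur subunit, was at 1343, 1023 and 1411 in controls and 1288, 1355 and 1421 in silenced cells. Only control replicate 2 was low, and the log2 fold change of 0.12 (SE 0.12) was -0.02 without that array.

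The membrane anchors of complex II, which hold its haem and bind ubiquinone, did not move with Sdhb. Sdhc was at 779, 892 and 742 in controls and 776, 717 and 726 in silenced cells, so control replicate 2 was its highest array. Its log2 fold change was -0.12 (SE 0.10). Sdhd was at 1097, 1296 and 1367 in controls and 1362, 1449 and 1346 in silenced cells, with control replicate 1 lowest and overlapping groups (log2 fold change 0.15, SE 0.10). On control replicate 2 the catalytic subunit Sdhb and the anchor Sdhc thus stood at opposite ends of their ranges. The near-zero median of the complex there was set by Sdha and Sdhd, which lay between them, and does not show that difference.

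In complex III the electron-carrying subunits had log2 fold changes near 0. Cyc1, the cytochrome c1 that passes electrons to cytochrome c, was at 965, 1084 and 1053 in controls and 1045, 1133 and 980 in silenced cells. Uqcrfs1, the Rieske iron-sulphur protein, was at 209, 231 and 225 in controls and 205, 237 and 243 in silenced cells. Both had overlapping groups and log2 fold changes of 0.03 (SE 0.09) and 0.04 (SE 0.10), and neither was lowest on control replicate 2.

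The core proteins of complex III, which face the matrix, did have their lowest value there. Uqcrc1 was at 2079, 1800 and 2063 in controls and 2005, 2056 and 2272 in silenced cells (log2 fold change 0.09, SE 0.10). Uqcrc2 was at 1660, 1600 and 1806 in controls and 1726, 1692 and 1819 in silenced cells (log2 fold change 0.05, SE 0.09). In both, silenced replicate 3 was highest and the groups overlapped.

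Uqcrh, the acidic hinge protein of complex III, had the widest spread of all members. Its intensity was 425, 673 and 1020 in controls and 572, 894 and 965 in silenced cells (log2 9.37 ± 0.63 against 9.63 ± 0.41, SD, n = 3 arrays each). The replicate 1 arrays were low and the replicate 3 arrays high in both groups, which overlapped (log2 fold change 0.25, SE 0.30), and without control replicate 1 the value was -0.07. Uqcrq, a small subunit near the ubiquinone site, was at 107, 138 and 87.8 in controls and 92.6, 97.8 and 96.8 in silenced cells (log2 fold change -0.19, SE 0.15), with control replicate 2 the highest array, and at -0.015 without that array. The small subunits Uqcrb and Uqcr11 were at 0.01 and 0.02, and the dim pseudogene Uqcrh-ps1 at 0.01 with intensities of 37.1 to 55.5.

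In complex IV, isoforms of most tissues and of single tissues are given apart. The 9 subunits of the form found in most tissues (Cox4i1, Cox5a, Cox5b, Cox6a1, Cox6b1, Cox7a2, Cox7b, Cox7c and Cox8a) had a median log2 fold change of 0.12, with 8 positive, and 8 of the 9 were lowest on control replicate 2. The 7 isoforms of muscle, lung or testis (Cox4i2, Cox6a2, Cox6b2, Cox7a1, Cox7b2, Cox8b and Cox8c) had a median of -0.08, with 2 positive, and 1 of the 7 was lowest there. Without control replicate 2 the medians were 0.02 and -0.07, with 5 of 9 and 2 of 7 positive. The tissue isoforms had intensities between 40.0 and 106 on the 6 arrays, and all 7 were dimmer than the median gene (87.7), as were 10 of the 48 members. They are all the complex IV members dimmer than it, so isoform and brightness cannot be told apart, and the difference between the sets was not tested. With no detection calls in the table, such values cannot be told from background.

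The subunits that flank the catalytic core of complex IV shared 1 low array. Cox4i1, the subunit through which ATP regulates the enzyme, was at 1133, 859 and 1097 in controls and 1134, 1066 and 1092 in silenced cells (log2 fold change 0.10, SE 0.11). Cox5a was at 1184, 1019 and 1260 against 1196, 1225 and 1301 (0.11, SE 0.10), and the zinc-binding subunit Cox5b at 2004, 1718 and 1869 against 2080, 2085 and 1921 (0.12, SE 0.09). In each, control replicate 2 was below the other 5 arrays, and without it the values were -0.02, 0.02 and 0.07. A second, dimmer Cox5b feature gave -0.05, and the mean of both features 0.04.

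The smaller subunits repeated this. Cox6a1 was at 6380, 4926 and 5616 in controls and 6105, 5611 and 6163 in silenced cells (log2 fold change 0.09, SE 0.11). Cox6b1, which faces cytochrome c, was at 1150, 901 and 1290 against 1324, 1159 and 1361 (0.21, SE 0.13), the largest value of complex IV. Cox7a2 was at 1461, 1223 and 1555 against 1599, 1506 and 1620 (0.16, SE 0.10), and Cox7b at 1974, 1441 and 1855 against 1824, 1888 and 1962 (0.12, SE 0.12). Without control replicate 2, Cox6a1 was at -0.01, Cox6b1 at 0.07, Cox7a2 at 0.06 and Cox7b at -0.02. Cox7c was the one of the 9 with a negative value (-0.06, SE 0.10), at the lower intensities of 93.0 to 116.

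In 3 of the 48 members the 3 silenced arrays lay above the 3 controls (6.25%, against 3.53% of all genes), and in 0 below (5.48% of all genes). Cox8a, a small subunit of complex IV, was at 2762, 2307 and 2807 in controls and at 2921, 2937 and 2942 in silenced cells (log2 11.35 ± 0.16 against 11.52 ± 0.01, SD, n = 3 each; log2 fold change 0.17, SE 0.10). Cox7a1, the heart and muscle isoform, was at 84.1, 71.6 and 84.6 against 87.2, 86.0 and 90.2 (0.14, SE 0.09), in the range of background. Atp5e, the epsilon subunit of ATP synthase, was at 503, 397 and 508 against 522, 575 and 512 (log2 8.87 ± 0.20 against 9.07 ± 0.09; log2 fold change 0.20, SE 0.11). In all 3 the lowest array was control replicate 2, and without it the values were 0.08, 0.06 and 0.08. A second, dimmer Atp5e feature gave -0.18, in the other direction.

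The remaining isoforms of complex IV were dim. Cox6a2, the heart and muscle form, was at 106, 69.3 and 74.6 in controls and 63.6, 77.9 and 69.1 in silenced cells (log2 fold change -0.23, SE 0.16). Its highest value was that of control replicate 1, without which the log2 fold change was -0.04. Cox7b2, a testis form, was at 47.3, 44.5 and 51.5 against 40.5, 47.2 and 40.0 (-0.17, SE 0.10). Cox4i2, the hypoxia-linked lung form, was at -0.04, Cox6b2 at 0.02, Cox8b at -0.08 and Cox8c at -0.10. Cox7a2l was at 256, 211 and 227 in controls and 191, 236 and 224 in silenced cells (-0.09, SE 0.11), with overlapping groups, and at -0.0037 without silenced replicate 1 and -0.02 without control replicate 1.

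In ATP synthase the subunits that bind ATP had log2 fold changes near 0. Atp5a1, the alpha subunit, was at 3473, 3411 and 3625 in controls and 3532, 3447 and 3630 in silenced cells (log2 fold change 0.01, SE 0.08, 95% interval -0.16 to 0.19). Atp5b, the catalytic beta subunit, was at 5598, 4931 and 5414 against 5436, 5380 and 5426 (0.03, SE 0.08). Control replicate 2 was the lowest array for both Atp5a1 and Atp5b, and without it the values were -0.0053 and -0.02. Atp5c1, the rotating gamma subunit, was at the lower intensities of 120, 130 and 136 against 92.7, 115 and 142 (-0.16, SE 0.14). Its value was -0.31 without silenced replicate 3 and -0.0062 without silenced replicate 1. Groups overlapped in all 3.

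The gene of the delta subunit, Atp5d, gave different answers from its 2 array features, and it is described in full because of that, having been chosen after its values were seen. The brighter feature (transcript cluster 17242839), which stands for the gene here, was at 1528, 1180 and 1321 in controls and 1377, 1314 and 1401 in silenced cells (log2 fold change 0.03, SE 0.11). The dimmer one (transcript cluster 17235198) was at 536, 338 and 560 in controls and at 977, 1061 and 758 in silenced cells (log2 8.86 ± 0.40 against 9.85 ± 0.25, SD, n = 3 each). All 3 silenced arrays lay above all 3 controls, as for 3.42% of the 40425 array features with a value on every array. The log2 fold change was 0.99 (SE 0.21), or 1.98-fold, with 0.87, 1.65 and 0.44 within replicates 1, 2 and 3. In a limma fit over these features its unadjusted p was 0.00137 (1.46% of features were higher at an unadjusted p under 0.05), and its adjusted p was 1.00, so it did not pass. Without control replicate 2 it was 0.75, and leaving out any other array gave 0.88 to 1.13. The mean of both features gave 0.51, with an unadjusted limma p of 0.00485, and did not pass after adjustment. Which transcripts each feature detects was not analysed here, so these values are those of the features and not a level of the gene.

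**Figure D4:**
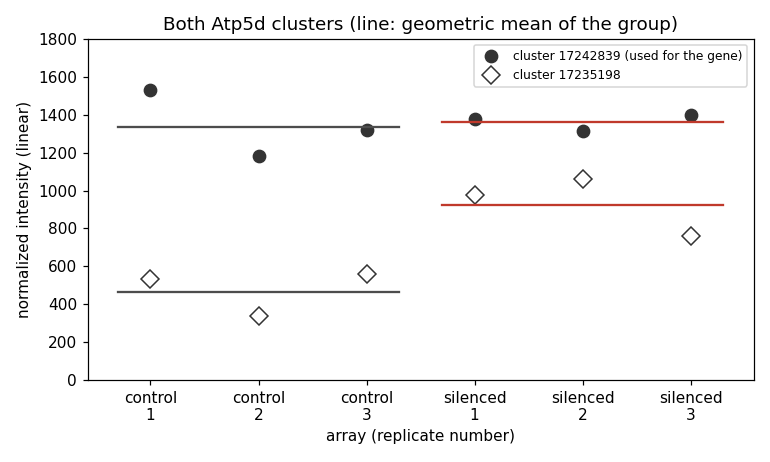
Normalized intensity (vertical axis, linear) of both Atp5d features on the 6 arrays, with lines at the geometric mean of each group. The brighter feature overlaps between groups, while the dimmer one is at 338 to 560 in controls and 758 to 1061 in silenced cells.

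Of the c subunit, which forms the rotating ring, 3 genes make the same mature protein with different import sequences. Atp5g3 was at 1092, 1148 and 1335 in controls and 1329, 1532 and 1338 in silenced cells. Its log2 fold change of 0.23 (SE 0.11) was the largest of complex V, and the groups overlapped only through control replicate 3. Within replicates 1, 2 and 3 its difference was 0.28, 0.42 and 0.00. It had the lowest unadjusted p of all 48 members, 0.0528 in the limma fit across all genes, with an adjusted p of 1.00. Atp5g2 was at 3404, 2852 and 3090 against 3208, 2974 and 3092 (-0.01, SE 0.09), a second feature of that gene also gave 0.00, and Atp5g1, at 105 to 136, was at -0.02 (SE 0.12). The 3 genes are measured by different features, so their levels cannot be ranked, and whether their fold changes differ was not tested.

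The membrane accessory subunits of ATP synthase, several of which hold its dimers together, were positive in 5 of 5, from 0.02 to 0.21, and in 5 of 5 without control replicate 2, from 0.01 to 0.15. Over all genes the positive share was 45.2%, and 45.9% without that array. Atp5l, the g subunit, was at 1068, 1003 and 1211 in controls and 1062, 1424 and 1323 in silenced cells (log2 fold change 0.21, SE 0.13). Silenced replicates 2 and 3 were above all controls, and silenced replicate 1 was not. Atp5md was at 0.18 (SE 0.11), Atp5mpl at 0.12 (SE 0.12), Atp5k, the e subunit, at 0.04 and the dim Atp5j2, the f subunit, at 0.02. Atp5j2 lay at intensities of 69.1 to 84.7 with overlapping groups. Its differences within replicates 1, 2 and 3 were 0.03, -0.17 and 0.21, so its sign is not firm. Those of Atp5k were -0.01, 0.16 and -0.02, so only the pair holding control replicate 2 was positive. The differences were 0.13, 0.21 and 0.01 in Atp5mpl, -0.01, 0.51 and 0.13 in Atp5l, and 0.08, 0.37 and 0.08 in Atp5md. The 5 of 5 is thus a count of signs, some of them of values close to 0. The 4 genes of the peripheral stalk, which keeps the head from turning, ran from -0.10 for Atp5o to 0.11 for Atp5pb, with 2 positive. Without control replicate 2 only Atp5pb was positive among them, at 0.06. The pseudogene Atp5c1-ps was at 0.02.

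Transcripts of the mitochondrial genome, which encodes further subunits of complexes III, IV and V, were at their highest on control replicate 2. Of the 6 such genes listed, 3 were measured, and all 3 were highest there. That array was highest for 21.4% of all genes and for 25.3% of genes with a mean intensity of at least 1000. CYTB, the cytochrome b of complex III, was at 8282, 9177 and 8347 in controls and 7983, 8829 and 7921 in silenced cells. COX1, the catalytic subunit of complex IV, was at 8625, 9140 and 7996 against 8598, 8478 and 8482, and COX3 at 5319, 6354 and 5777 against 5484, 5896 and 5599. Their median deviation on control replicate 2 was 0.13, against -0.06 to 0.04 on the other arrays, so that it had the opposite sign to that of the nuclear genes of complex IV (-0.18). Log2 fold changes were -0.06, -0.01 and -0.04, and 0 of 3 passed the test. Without control replicate 2 they were -0.01, 0.04 and 0.03.

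**Figure D5:**
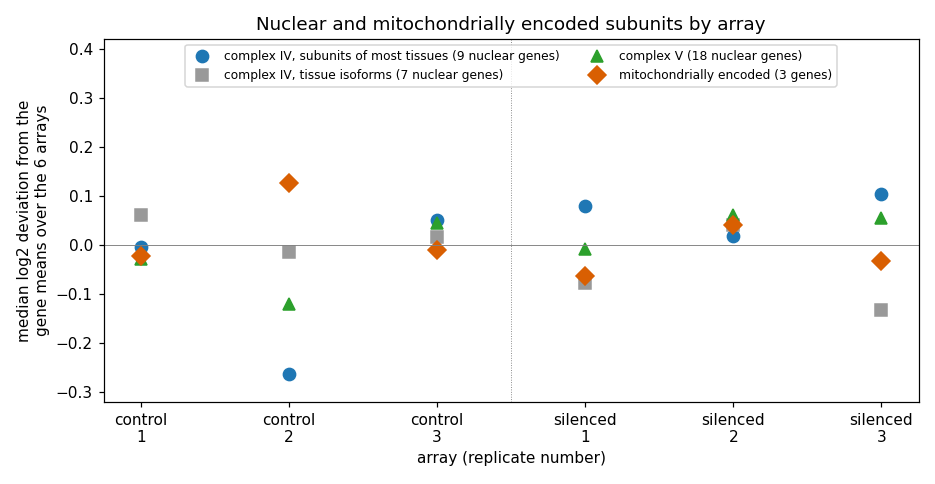
Median deviation from the gene means over the 6 arrays (vertical axis, log2) for 9 complex IV subunits of most tissues, 7 tissue isoforms, the 18 complex V genes and 3 mitochondrially encoded subunits. On control replicate 2 the 9 nuclear subunits are at -0.26 and the mitochondrial ones at 0.13, while the tissue isoforms are at -0.01.

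Among genes that build or serve these complexes, 0 passed the test. Of 37 measured assembly factors of complexes II to V, 18 had positive and 19 negative log2 fold changes, and the median was 0.00. On control replicate 2, 13 of the 37 had their lowest value, against 19.1% of all genes. Their median deviation was -0.06 on that array and between -0.04 and 0.04 on the others, so its low values were not limited to the subunits. Cox15, which makes the haem A of complex IV, had the lowest unadjusted p among the assembly factors. It was at 965, 790 and 852 in controls and at 649, 665 and 692 in silenced cells, so that every silenced array lay below every control, as for 5.48% of all genes. The log2 fold change was -0.37 (SE 0.10), or 1.30-fold lower, with an unadjusted limma p of 0.00351 and an adjusted p of 1.00. Leaving out any 1 array gave values from -0.44 to -0.30. It was the 1 assembly factor of 37 with an unadjusted p under 0.05, against 3.76% of all genes.

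Of 16 measured electron carriers, ubiquinone synthesis genes and the inhibitor gene of ATP synthase, 11 were positive with a median of 0.03, and 8 were lowest on control replicate 2, where the median deviation was -0.16. Coq6, a hydroxylase of ubiquinone synthesis, had the lowest p of these at -0.18 (SE 0.10). Atpif1, the inhibitor of ATP synthase, was singled out for its values, at 1828, 1144 and 1706 in controls and 1735, 1759 and 2129 in silenced cells. Its log2 fold change was 0.29 (SE 0.17), and 0.08 without control replicate 2.

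Of 15 regulators of nuclear and mitochondrial respiratory genes, 4 were positive and 11 negative, with a median of -0.07. Polrmt, the mitochondrial RNA polymerase, had the lowest p and was at 224, 198 and 235 in controls and 332, 242 and 236 in silenced cells (log2 fold change 0.29, SE 0.14). Silenced replicate 1 was far above the others, and without it the value was 0.13. Tfam, which packages and transcribes mitochondrial DNA, was at 227, 268 and 178 against 273, 272 and 262 (0.28, SE 0.14; named for its values), and at 0.13 without control replicate 3. Both had an adjusted limma p of 1.00.

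Promoter letters and fold changes are set side by side as a description. The 7 members with the NRF1 core had a median log2 fold change of 0.09 and the matched members without it 0.04. The 13 members with the ETS core had a median of 0.15 and the others 0.03. For the YY1 core the order was the other way, with 0.02 in the 3 members that hold it and 0.06 in the others. No test was made, and control replicate 2 enters these values too.

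The labels were checked on Angpt2 and on lineage markers. Angpt2 was at 195, 372 and 326 in controls and 100.2, 122 and 122 in silenced cells, a log2 fold change of -1.33 (SE 0.21) with every silenced array below every control and an adjusted limma p of 1.00, or 0.0460 with the replicate number as a block. All 8 melanocyte lineage markers were brighter than the median gene, between 1387 and 9651. All 10 endothelial, leukocyte and keratinocyte markers measured had means dimmer than it, with single arrays between 47.3 and 90.9. Of the 4 fibroblast markers 2 were, with a range of 49.6 to 103, and of the 4 muscle and heart markers 2 were, with a range of 61.5 to 152. Mitf had the lowest p of the melanocyte markers at -0.20 (SE 0.08), with an adjusted p of 1.00 in the limma fit across all genes. Array medians over all features lay between 74.6 and 76.3.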

How the data were processed

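RNA from 6 cultures was measured on 1 array each. The deposited values are intensity per transcript cluster (array feature) on a linear scale, normalized by the authors. Their background correction, summarization and normalization are not given in the sources used here, and their range shows a linear scale. Of 41345 clusters 40425 were complete. Those with 1 symbol in the platform annotation (23521) entered, and the brightest cluster stood for a gene, which left 22180. All 48 members were found in RefSeq by gene ID. Genome coordinates are given only for RefSeq promoters.

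Values were converted to log2 with no pseudocount and compared with limma 3.58.1 (R 4.3.3), lmFit and eBayes, with two-sided p-values adjusted by Benjamini-Hochberg across every gene tested, at a threshold of 0.05. The fit was tested on simulated data drawn independently for each gene and array. That simulation did not cover deviations shared between genes or arrays. Members are not replicates, so medians over them have no p-value. An exact permutation test of 3 against 3 arrays cannot go below 0.1. The labels call the cultures biological replicates, and their number limits the precision.

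Same-numbered arrays of the groups deviated together (correlations 0.13, 0.21 and 0.14 over genes). This pairing was read from the data, not from the labels. The main fit was unpaired, and its SE, intervals and p-values do not use the pairing. The block was an alternative, beside quantile normalization, median centring, a filter on dim genes, the mean of a gene's clusters, all clusters, means in place of medians over members, structural subunits only, trend and robust eBayes, array weights, a pseudocount of 16 and leaving out each array.

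The members and lists were chosen with earlier results of these data known. Named members are the core subunits, the 3 of each complex with the lowest p, those whose groups do not overlap and isoform sets. From each other list the called members are named or, with none, the one with the lowest p. Other genes were named after their values were seen or to complete a role.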

Additional observations from a re-analysis of the deposited data

How the results depend on the processing

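Under all 15 alternatives that refit the model, 0 members passed the threshold, the replicate block included, and 0 of the 34 named members did so in any. With the replicate block, Angpt2 (-1.33) passed at an adjusted p of 0.0460 in the limma fit, and without control replicate 1 (-1.61) it passed at 0.0116. Leaving out single arrays gave -1.61 to -1.14. The block changed no call among the members, and it was not run as a separate result for genes of the other lists. Members with an unadjusted p under 0.05 numbered 1 with centring on array medians, the mean of all clusters, trend and robust options or a pseudocount of 16 (3.66% to 3.9% of all genes). That member was Atp5d with the mean of all clusters (0.51) and Atp5g3 in the other settings (0.23 to 0.25). Without single arrays they numbered 0 to 4, the 4 being Uqcrq, Atp5md, Atp5g3 and Cox6b1 without control replicate 3, where 5.75% of all genes were under it. Positive members numbered 23 to 33 when an array was left out, lowest without control replicate 2. Medians then ran from -0.023 to 0.10 in complex II, 0.012 to 0.057 in complex III, -0.010 to 0.13 in complex IV and 0.0021 to 0.084 in complex V.

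Direction held in every setting for 21 of the 34 named members and turned in some for 13, among them Uqcrh. Its value of 0.25 was the largest of the members in the main fit, which uses the brightest cluster of each gene. With quantile normalization Atp5b was at -0.0015 and Atp5g2 at 0.018, and with median centring Atp5g2 was at 0.0078. With array weights Atp5a1 was at -0.0010, Atp5g1 at 0.0017, Atp5g2 at 0.00065, Cox4i2 at 0.0050 and Cox6b2 at -0.0026. Leaving out single arrays gave ranges of -0.029 to 0.076 for Cyc1, -0.068 to 0.56 for Uqcrh, -0.070 to 0.058 for Atp5g2, -0.13 to 0.028 for Cox4i2, -0.074 to 0.18 for Cox6b2, -0.024 to 0.21 for Sdhb, -0.023 to 0.18 for Cox4i1, -0.0053 to 0.039 for Atp5a1, -0.024 to 0.067 for Atp5b, -0.091 to 0.095 for Atp5g1, -0.0075 to 0.18 for Cox6a1, -0.018 to 0.21 for Cox7b and -0.0039 to 0.12 for Uqcrfs1. The causes were not tested. Another background correction was not run, since it needs values from before summarization.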
